A study of Mus musculus with 8 samples.

Results

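The 10 genes described here take part in the handling of phosphate and in the mineralisation of bone. They are *Fgf23*, *Phex*, *Fam20c*, *Slc20a1*, *Slc20a2*, *Enpp1*, *Alpl*, *Phospho1*, *Smpd3* and *Gdpd2*, and their rows were taken by symbol from the 32285 gene rows of the count matrices. Each symbol matched 1 row in all 8 matrices. The group is not made of enzymes only, since *Fgf23* encodes a hormone and *Slc20a1* and *Slc20a2* encode transporters. By the RefSeq annotation of GRCm38.p6, *Phex* (ENSMUSG00000057457) lies at chrX:157162075-157415286 and *Gdpd2* (ENSMUSG00000019359) at chrX:100729836-100738901. *Enpp1* (ENSMUSG00000037370) lies at chr10:24637914-24712159, *Alpl* (ENSMUSG00000028766) at chr4:137741731-137796384 and *Phospho1* (ENSMUSG00000050860) at chr11:95824500-95832140. *Smpd3* (ENSMUSG00000031906) and *Slc20a2* (ENSMUSG00000037656) share a chromosome, at chr8:106252548-106337965 and chr8:22476700-22569616. *Slc20a1* (ENSMUSG00000027397) lies at chr2:129198773-129211615, *Fgf23* (ENSMUSG00000000182) at chr6:127072902-127082296 and *Fam20c* (ENSMUSG00000025854) at chr5:138755081-138810063.

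Cells of the femurs and tibiae of 8 female mice were profiled by droplet scRNA-seq, with 1 library per mouse and 2 mice in each of 4 groups. Controls of 7 and 13 weeks were *Sox4fl/fl Sox11fl/fl Sox12fl/fl* mice without Cre, and mutants of the same ages carried the same floxed alleles together with *OsxCre* (*SOXC OsxCre* mice). *OsxCre* is a Cre transgene driven by regulatory sequence of *Osx* (*Sp7*) and active mainly in osteoblast lineage cells, and the study's methods give doxycycline food as the default means of silencing it until weaning. Because controls lacked the transgene, an effect of Cre itself cannot be told apart from the loss of the SOXC genes. The periosteum was scraped off, the marrow flushed out, the bone digested and haematopoietic cells depleted with antibodies before loading, so that the cells are those that the digestion released. The libraries held 81894604 to 156090286 unique molecular identifiers (UMIs), and replicate 1 was the deeper library in each group. In all, 59629 cells were kept (6410 to 8753 per mouse), and any 2 libraries shared at most 25 barcodes among them.

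Cells were clustered again from the counts without the 10 genes and the SOXC genes, and clusters were named from marker lists that do not hold them. The names carry the suffix -like for this reason. *Lepr*+ MSC-like cells (4037 cells) are stromal cells of the marrow, and OP/preOB-like cells (4617) are osteoprogenitors and preosteoblasts, which were kept as 1 class because their division moved with the random seed of the clustering. OB-like cells (23809) are osteoblasts, and osteocyte-like cells (978, with 75 to 173 per mouse) are led by *Ptprz1*, *Gm41724*, *Pdpn* and *Dmp1*. GPC-like (1894) and hypertrophic GPC-like cells (2520) are growth plate chondrocytes. All 15 markers of the *Lepr*+ MSC list and all 15 of the OB list counted in their clusters, as did 8 of the 10 osteocyte markers. Levels are given as CPM, the UMIs of a gene relative to all UMIs of the cell type in a mouse, set to 1 common total. They were scaled with trimmed-mean (TMM) factors between the mice of a cell type, not between cell types. Since clusters hold the cells in which the levels are then read, levels between cell types are a description without a test.

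Bone mineral forms where phosphate and calcium exceed what the matrix fluid can hold, and pyrophosphate in that fluid blocks crystal growth. ENPP1 makes pyrophosphate from nucleotides, and the tissue-nonspecific alkaline phosphatase encoded by *Alpl* splits it into phosphate. PHOSPHO1 and the sphingomyelinase encoded by *Smpd3* release phosphate and phosphocholine from membrane lipids, while the *Slc20a* transporters bring phosphate into cells. At the level of the whole body, bone cells secrete FGF23, which makes the kidney excrete phosphate. PHEX, an endopeptidase on the surface of osteocytes and osteoblasts, holds FGF23 down, and FAM20C, a kinase of the secretory pathway, phosphorylates FGF23 and the acidic proteins of bone matrix.

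The sequences before the start of *Phex*, *Enpp1*, *Fam20c* and *Gdpd2*, the genes that with *Slc20a2* make up the calls of edgeR by genotype over both ages with or without a block for paired mice, are shown with the short motifs they hold, if any, since SOXC proteins and the osteoblast factor RUNX2 bind DNA through sequences of these kinds. Promoter windows of 250 bases before the start were found for 8 of the 10 genes in RefSeq (GRCm38.p6), and *Slc20a2* and *Smpd3* were not among them. The motifs searched on both strands were ACAAAG and ACAATG, bound by SOX proteins, and TGTGGT, bound by RUNX proteins, and no matches overlapped in the windows shown. ACAAAG occurred in 5408 of 32851 such windows (16.5%), ACAATG in 3512 (10.7%) and TGTGGT in 4614 (14%). The windows below read 5′ to 3′ on the strand of the gene, and the capitals mark the motif. That of *Phex* (chrX:157415287-157415536, minus strand) held ACAAAG 244 bases before the start, that of *Enpp1* (chr10:24712160-24712409, minus strand) held the RUNX motif on the opposite strand, read here as ACCACA, 144 bases before it, and that of *Gdpd2* (chrX:100729597-100729846, plus strand, the first of 2 start sites) held it 66 bases before it. That start site lies a few bases inside the bounds of *Gdpd2* given above, so the end of the window overlaps the gene by the other RefSeq table. The window of *Fam20c* (chr5:138754831-138755080, plus strand) held none of the motifs and has no capitals.
Phex: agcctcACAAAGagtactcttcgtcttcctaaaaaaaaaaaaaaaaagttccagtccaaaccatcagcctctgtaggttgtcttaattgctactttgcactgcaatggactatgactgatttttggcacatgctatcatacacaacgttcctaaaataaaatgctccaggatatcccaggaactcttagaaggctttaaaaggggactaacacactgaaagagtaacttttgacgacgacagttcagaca
Enpp1: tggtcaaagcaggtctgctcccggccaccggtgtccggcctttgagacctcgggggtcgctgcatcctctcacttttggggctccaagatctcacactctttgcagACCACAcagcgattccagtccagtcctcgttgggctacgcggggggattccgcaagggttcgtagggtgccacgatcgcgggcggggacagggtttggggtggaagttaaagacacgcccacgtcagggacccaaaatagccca
Gdpd2: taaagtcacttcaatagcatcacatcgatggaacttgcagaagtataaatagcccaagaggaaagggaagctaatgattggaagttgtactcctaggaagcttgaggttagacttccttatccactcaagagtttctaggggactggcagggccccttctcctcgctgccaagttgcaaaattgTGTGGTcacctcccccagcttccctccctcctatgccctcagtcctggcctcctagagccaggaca
Fam20c: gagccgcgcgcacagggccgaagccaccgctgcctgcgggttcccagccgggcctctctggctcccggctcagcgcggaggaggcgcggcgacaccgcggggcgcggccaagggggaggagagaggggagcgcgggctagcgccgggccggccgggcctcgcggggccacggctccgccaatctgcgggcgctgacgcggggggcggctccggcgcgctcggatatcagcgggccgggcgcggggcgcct
A match of 6 letters is a description of the window and not a binding site. *Alpl* held ACAAAG before both of its start sites, *Slc20a1* held TGTGGT and *Fgf23* held ACAATG, while no motif occurred in the windows of *Phospho1* and *Fam20c*.

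In the 4 mutants *Sox4*, the targeted gene with the most UMIs here, was lower throughout the osteoblast lineage, which checks the labels. On the log2 scale it fell by 1.29 in *Lepr*+ MSC-like cells, and by 1.34, 1.55 and 1.70 in OP/preOB-like, OB-like and osteocyte-like cells (largest adjusted p = 0.0045). It did not pass in endothelial-like (-0.24 ± 0.14, SE), hypertrophic GPC-like (0.07 ± 0.35) or GPC-like cells (-0.83 ± 0.25), each with an adjusted p of 1.00. Nor did it pass in Sca1+ MSC-like stromal cells (-1.31 ± 0.35, adjusted p = 0.42) or pericyte-like cells (-0.79 ± 0.22, adjusted p = 0.70). Adjusted p-values throughout are Benjamini-Hochberg values from edgeR's quasi-likelihood test, adjusted over every gene that entered the fit of a cell type, with 0.05 as the threshold.

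*Phex* was highest in osteocyte-like cells. Its control mean was 1399 ± 150 CPM there (SD, n = 4 mice), 5.23 times the 267 ± 51.9 CPM of OB-like cells, and this gap was wider than both SDs together. *Lepr*+ MSC-like (99.1 ± 42.5), hypertrophic GPC-like (79.1 ± 8.90) and OP/preOB-like cells (71.7 ± 39.5) followed and did not differ beyond their spread, and GPC-like cells had 10.8 ± 3.76 CPM. When each cell with at least 2000 UMIs was thinned to that number (38 of 978 osteocyte-like, 173 of 4037 *Lepr*+ MSC-like and 221 of 1728 erythroid-like cells had fewer and were left out), 87.3% of osteocyte-like cells had a *Phex* UMI (exact 95% binomial interval 85.04 to 89.4, counting error only), 34.3% of OB-like and 10.7% of *Lepr*+ MSC-like cells. Erythroid-like cells, which should lack the gene, had 1.26% after thinning and 10.2% before it, at a median of 24884.5 UMIs against 5024 in *Lepr*+ MSC-like cells, of which 21.8% had a UMI before thinning. Among the 7 OB-like clusters *Phex* ranged from 189 ± 62.1 CPM, in a cluster led by *Cpz*, *Dmp1* and *Ifitm5*, to 416 ± 74.8 CPM (SD over 8 mice), in a cluster led by *Cpz*, *Col1a1*, *Col1a2* and *Col22a1*.

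*Fgf23* was hardly detected in bone-forming cells. It had 479 UMIs in all kept cells, and none lay in the 978 osteocyte-like cells, which allows a share of cells with a UMI of up to 0.307%. The OB-like cells held 21 UMIs in 18 of 23809 cells. Endothelial-like cells held 386 UMIs (80.6% of the total) in 74 of 3508 cells, all in 1 of their 2 clusters, and *Lepr*+ MSC-like and OP/preOB-like cells followed with 32 and 28 UMIs. Most of the endothelial UMIs came from 1 mouse. In the mutants of 7 weeks 10.0% (49 of 489) and 1.20% (11 of 920) of endothelial-like cells had a UMI, against 1.21% (4 of 330) and 0.685% (6 of 876) in the controls of that age. None of 185 and 269 cells did in the controls of 13 weeks, which allows up to 1.62 and 1.12% by a limit of 3 cells, and 0.610 and 1.09% did in the mutants of that age. In CPM these were 11.98 and 1.93 (controls) and 67.99 and 9.21 (mutants) at 7 weeks, and 0 and 0 (controls) and 2.03 and 9.38 (mutants) at 13 weeks. With the genotypes compared at 7 weeks the adjusted p was 1.00, or 0.014 with the pair of mice of one replicate number as a block, where it was the only gene called of 10771 (0.00928%). *Fgf23* passed the filter on low counts here largely through the mutants, the genotype where it was higher, and no support is drawn from this call. Without replicate 1 of the mutants of 7 weeks, the log2 fold change of that age was 0.52 ± 0.77 (SE) in place of 2.62 ± 0.80, and without replicate 2 it was 3.42 ± 0.55. Either leaves 1 mutant of that age, whose spread is then taken from the other groups.

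**Figure D1:**
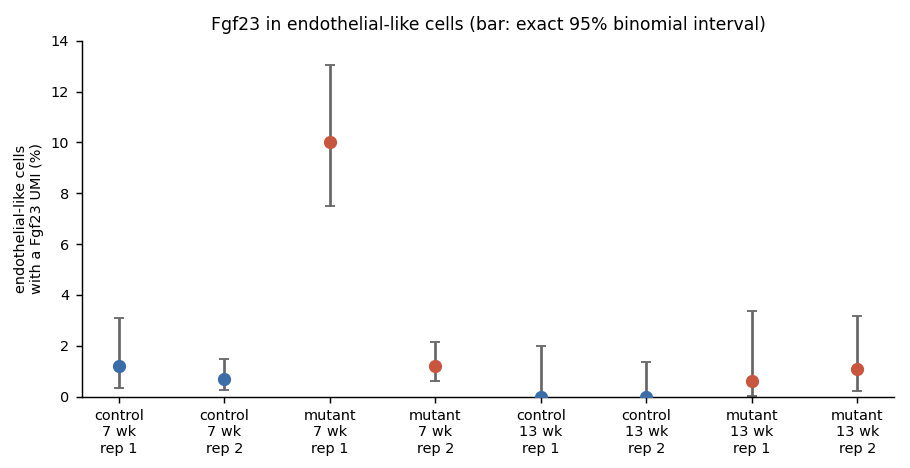
Share of endothelial-like cells with an *Fgf23* UMI in each mouse (y axis, percent; bars are exact 95% binomial intervals, which cover counting error only and end at 1.97 and 1.36% for the 2 controls without a UMI). Replicate 1 of the mutants of 7 weeks reached 10.0%, while the other 7 mice lay between 0 and 1.21%.

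*Fam20c* was also highest in osteocyte-like cells, with 178 ± 30.9 CPM in controls. Hypertrophic GPC-like cells came next (122 ± 34.9), and their gap to osteocyte-like cells was within the spread. OP/preOB-like (56.9 ± 25.4), OB-like (55.6 ± 9.07) and GPC-like cells (45.1 ± 15.9) lay close together. *Lepr*+ MSC-like cells had 20.6 ± 8.78 CPM and erythroid-like cells 1.15 ± 0.631. After thinning, 34.3% of osteocyte-like and 0.531% of erythroid-like cells had a UMI.

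The phosphate transporters peaked in different cells. *Slc20a2* had its highest control mean in OP/preOB-like cells (267 ± 105 CPM, or 153 ± 75.2 at a mitochondrial limit of 5% in place of 10%), and Sca1+ MSC-like (91.4 ± 77.1) and *Lepr*+ MSC-like cells (56.1 ± 29.2) followed. In OB-like (2.56 ± 0.709) and osteocyte-like cells (2.83 ± 2.35) it lay below the 11.9 ± 3.31 CPM of erythroid-like cells. After thinning, 31.7% of OP/preOB-like cells had a UMI of it. *Slc20a1* was highest in endothelial-like cells (119 ± 34.8), followed by GPC-like (92.9 ± 42.3) and hypertrophic GPC-like cells (66.3 ± 29.1), which did not differ beyond their spread. Along the lineage it had 31.8 ± 8.28 CPM in *Lepr*+ MSC-like, 17.6 ± 5.80 in OP/preOB-like and 4.33 ± 1.51 in OB-like cells, the last being 4.05 times below OP/preOB-like cells. Erythroid-like cells had 30.3 ± 8.04 CPM, so that along the lineage *Slc20a1* was at or below their level, and after thinning 5.25% of *Lepr*+ MSC-like, 2.70% of OP/preOB-like and 6.04% of erythroid-like cells had a UMI.

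Of the genes that set pyrophosphate, *Alpl* had 1870 ± 122 CPM in hypertrophic GPC-like and 1754 ± 161 in OP/preOB-like cells, which did not differ beyond their spread. It was lower in Sca1+ MSC-like cells (999 ± 247), a stromal type of 504 cells, OB-like cells (672 ± 79.1), GPC-like cells (461 ± 59.8) and *Lepr*+ MSC-like cells (382 ± 151), and in osteocyte-like cells (287 ± 71.5). After thinning, an *Alpl* UMI was found in 90.2% of OP/preOB-like cells against 2.99% of erythroid-like cells. *Enpp1* was highest in hypertrophic GPC-like cells (95.8 ± 52.7), and Sca1+ MSC-like (66.1 ± 32.4), GPC-like (59.6 ± 18.3), *Lepr*+ MSC-like (51.3 ± 12.0) and OP/preOB-like cells (42.8 ± 15.1) followed without gaps beyond their spread. OB-like cells had 2.24 ± 0.432 CPM of *Enpp1*, below the 4.29 ± 0.659 of erythroid-like cells, and osteocyte-like cells 8.42 ± 4.57.

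The enzymes of lipids were spread over opposite ends of the lineage. *Gdpd2*, a glycerophosphodiester phosphodiesterase of the cell membrane, had 810.3 ± 206 CPM in *Lepr*+ MSC-like and 193 ± 49.7 in OP/preOB-like cells, a step wider than both SDs together. In OB-like (2.07 ± 0.775) and osteocyte-like cells (2.50 ± 0.734) it was near the 2.25 ± 0.539 CPM of erythroid-like cells, and after thinning 79.9% of *Lepr*+ MSC-like but 0.575% of OB-like cells had a UMI. *Smpd3* had the reverse order, running from 37.2 ± 12.0 CPM in *Lepr*+ MSC-like cells through 199 ± 128 in OP/preOB-like cells to 1294 ± 482 in the OB-like ones. Hypertrophic GPC-like (938 ± 122), GPC-like (899 ± 181) and osteocyte-like cells (829 ± 423) did not differ from OB-like cells beyond their spread. The wide spread of *Smpd3* in OB-like cells came with the replicate number. The controls of 7 weeks had 1909 and 793 CPM, the mutants of 7 weeks 1363 and 1033, the controls of 13 weeks 1411 and 1064 and the mutants of 13 weeks 1046 and 1007, with replicate 1 given first. Replicate 1, which was also the deeper library, was higher in each of the 4 groups, and the part of depth in this was not tested. *Phospho1*, which encodes a phosphocholine phosphatase of matrix vesicles, reached at most 13.4 CPM in the 6 cell types, with 8.08 ± 3.71 CPM in osteocyte-like and 5.01 ± 1.70 in OB-like cells of controls and 0.193 ± 0.241 in *Lepr*+ MSC-like cells.

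**Figure D2:**
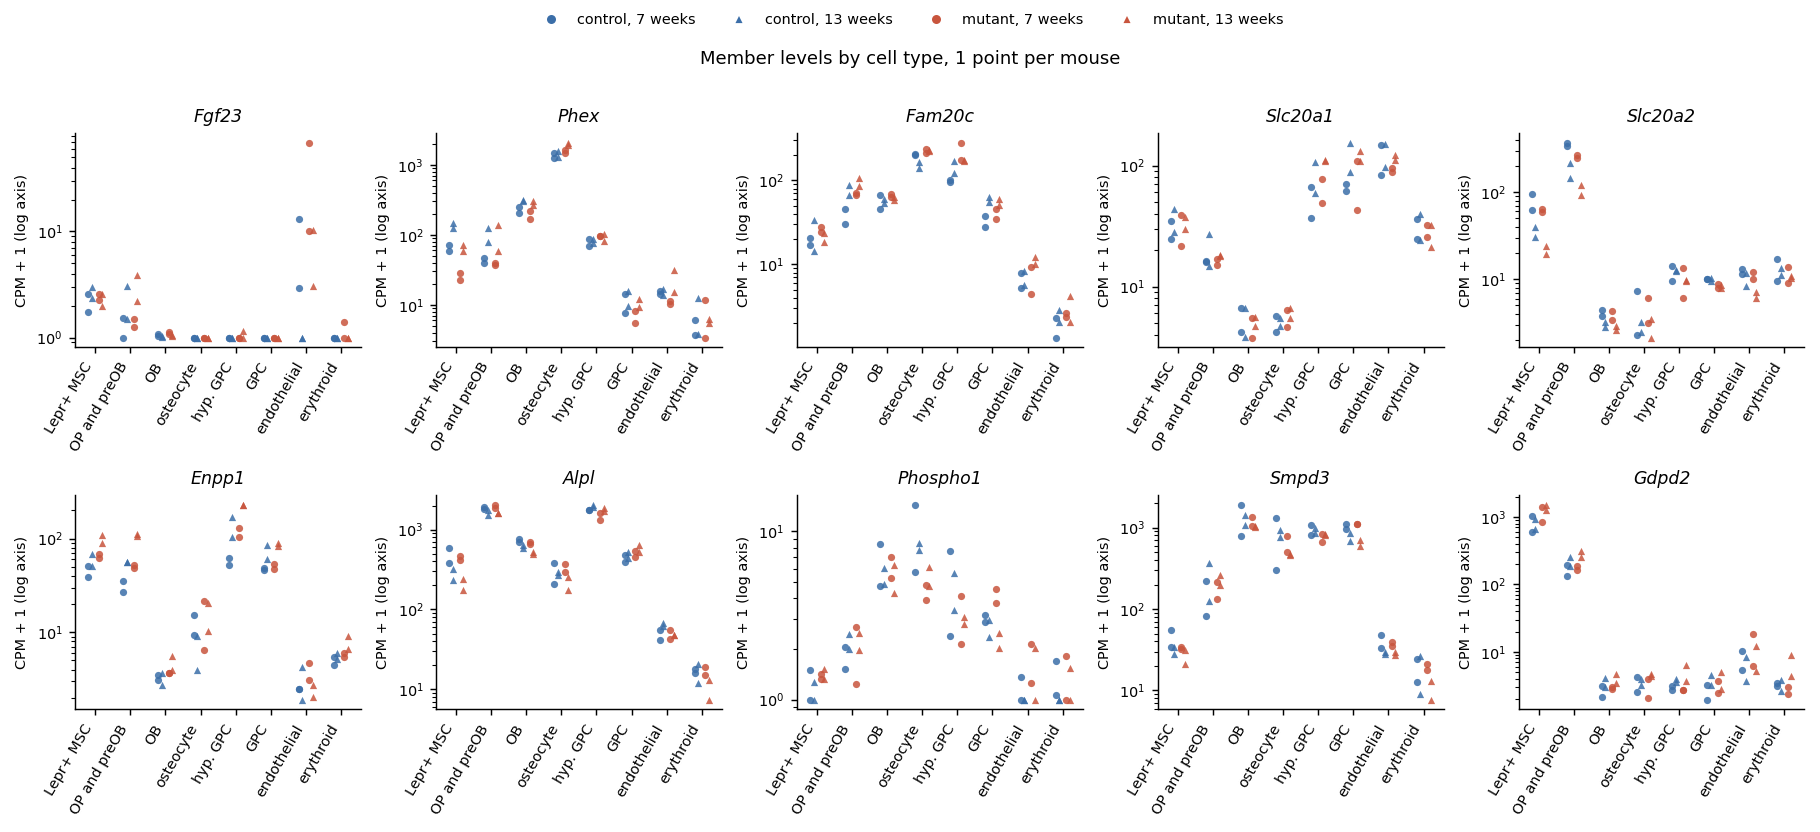
Level of each of the 10 genes (CPM + 1, log axis) in 8 cell types, 1 point per mouse, with circles for 7 and triangles for 13 weeks, blue for controls and red for mutants. *Phex* peaks in osteocyte-like cells (control mean 1399 CPM), *Gdpd2* in *Lepr*+ MSC-like cells (810.3 CPM), *Slc20a2* in OP/preOB-like cells (267 CPM) and *Smpd3* in OB-like cells (1294 CPM).

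The comparison of mutants with controls asks how the loss of SOXC in the osteoblast lineage bears on these genes. The filter on low counts left 49 tests of the 10 genes in the 6 cell types, with *Fgf23* tested in none of them and *Phospho1* in 4. Averaged over both ages, 2 of the 49 passed, and 13 had an unadjusted p under 0.05. *Phex* fell in *Lepr*+ MSC-like cells, where 0.198% of all genes tested were called, and *Enpp1* rose in OP/preOB-like cells, where 0.851% were (1.26% in OB-like, 1.57% in osteocyte-like, 0.00899% in GPC-like and 0 in hypertrophic GPC-like cells). The median log2 fold change over the 49 tests was 0.03, and that over all genes tested lay between -0.0055 and 0.00083 in the 6 types. Replicates of one number deviated together in 5 of the 6 types (all but GPC-like cells), and with the 2 mice that share an age and a number as a block (the pair) 11 of the 49 passed, 9 of them higher and 2 lower in mutants. With the block, the share of all genes called was 8.43% in OB-like, 4.83% in OP/preOB-like, 4.34% in osteocyte-like, 1.16% in *Lepr*+ MSC-like, 0.417% in hypertrophic GPC-like and 0.027% in GPC-like cells. Replicate 1 was the deeper library in each group, so pair and depth cannot be told apart in the block. Without the block, DESeq2 called 5 tests, namely these 2 with *Enpp1* and *Fam20c* in hypertrophic GPC-like and *Slc20a2* in OP/preOB-like cells. The share of all genes that DESeq2 called is not given here, so its counts stand without that background. Where 2 adjusted p-values follow each other below, both are from edgeR, the first without and the second with the block.

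**Figure D3:**
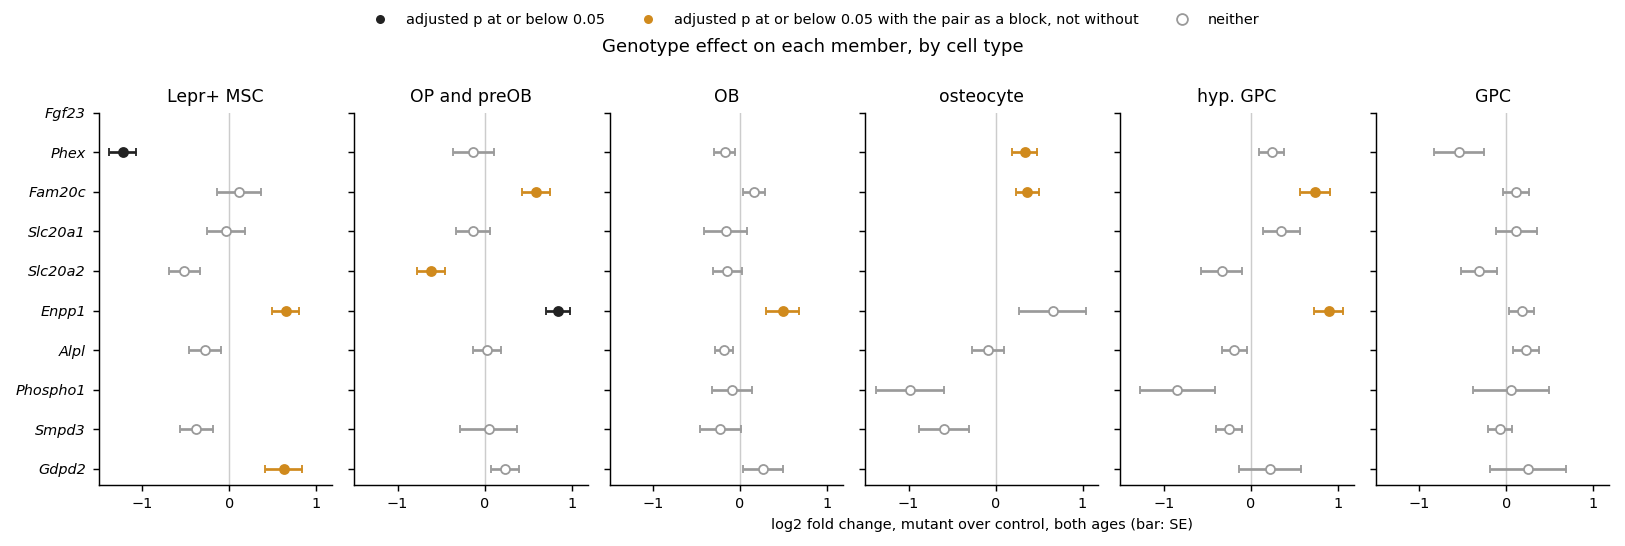
Log2 fold change of mutant over control mice averaged over both ages (x axis; bars are SE of the fit with 8 mice) for each gene in the 6 cell types, with no point where a gene did not pass the filter on low counts. Filled black marks what passed, *Phex* in *Lepr*+ MSC-like cells at -1.23 and *Enpp1* in OP/preOB-like cells at 0.84, and filled orange marks what passed in edgeR with the pair as a block and not without it.

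Mutants had less *Phex* in their marrow stromal cells. *Lepr*+ MSC-like cells had 69.8 and 56.9 CPM in the controls and 21.4 and 27.8 in the mutants of 7 weeks, and 145 and 124 CPM in the controls and 69.5 and 58.7 in the mutants of 13 weeks. The genotypes did not overlap at either age, and the mutants of 13 weeks lay at about the level of the controls of 7 weeks. *Phex* thus fell by 1.23 on the log2 scale (SE 0.15, adjusted p = 0.0088, or 0.00042 with the pair as a block). Without replicate 2 of the mutants of 13 weeks the adjusted p was 0.051. At 7 weeks alone the difference was -1.38 ± 0.23 (SE) and at 13 weeks -1.07 ± 0.21, with adjusted p-values of 0.076 and 0.20, or 0.0067 and 0.020 with the block. Osteoblast transcripts in these cells did not separate the genotypes. The summed level of the 15 OB markers, all detected, was 6866 to 10560 CPM in controls and 5678 to 11258 in mutants, and *Bglap* was at 0.981 to 2.77% of its level in OB-like cells of the same mouse. Proliferation markers (10, all detected) did separate them, at 112 to 165 CPM in the controls and 62.7 to 91.3 in the mutants of 7 weeks and at 79.8 to 93.9 against 72.8 to 77.3 CPM at 13 weeks. The Sca1+ MSC markers (12, all detected) overlapped at 7 weeks and were at 675 to 686 CPM in the controls and 773 to 778 in the mutants of 13 weeks. The *Lepr*+ MSC markers (15, all detected) were at 35164 to 41942 against 42488 to 45177 CPM at 7 weeks and overlapped at 13 weeks. Endothelial markers (10, all detected) were at 110.6 to 151.5 against 156 to 221 CPM at 7 weeks and overlapped at 13 weeks. At 13 weeks the *Lepr*+ OP markers (10, all detected) were at 17048 to 17295 against 16208 to 16756 CPM. Megakaryocyte markers (5, all detected) were then at 90.6 to 94.5 against 61.7 to 63.8 CPM, and both lists overlapped at 7 weeks. The part of these in the fall of *Phex* was not tested. With 2 mice per genotype at each age, the ranges of a list can lie apart through spread between mice alone. No expected share of such lists is set beside those named here and below. After thinning, the mean share of *Lepr*+ MSC-like cells with a *Phex* UMI was 13.6% over controls and 7.24% over mutants.

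In the cells further along the lineage *Phex* did not pass with edgeR without the block. OP/preOB-like cells showed a difference of -0.13 ± 0.23 (SE) and OB-like cells one of -0.18 ± 0.12, neither passing with or without the block. In osteocyte-like cells *Phex* was at 1265 and 1471 CPM in the controls and 1465 and 1620 in the mutants of 7 weeks, and at 1575 and 1286 against 2081 and 1906 CPM at 13 weeks, so that the mutants were higher at the older age and overlapped the controls at the younger. Its difference of 0.34 ± 0.15 passed with the block and not without it (adjusted p = 0.41 and 0.024), as did that of 0.50 ± 0.21 at 13 weeks (0.58 and 0.024). The 10 osteocyte markers, all detected, summed to 4781 to 5116 CPM in controls and 5461 to 6072 in mutants of these cells at 7 weeks, and overlapped at 13 weeks. The 14 GPC markers, all detected, overlapped at 7 weeks and were at 3094 to 4895 and 1932 to 2597 CPM at 13 weeks. At 7 weeks the proliferation markers (10, all detected) were at 35.6 to 45.2 and 17.3 to 22.7 CPM. The Sca1+ MSC markers (12, of which 10 were detected) were then at 16.8 to 23.6 and 36.9 to 37.3 CPM. At 13 weeks the preOB markers (12, all detected) were at 859.7 to 860.8 and 976.4 to 976.6 CPM, and some other lists were apart within an age. Osteoclast markers (5, all detected) separated the genotypes, at 74.5 to 99.3 CPM in controls and 119 to 162 in mutants, as did those of haematopoietic progenitors (8, all detected), at 9.33 to 13.1 and 5.12 to 7.59 CPM. The part of these markers in the difference of *Phex* was not tested.

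Whether the genotype effect itself differed from that in OB-like cells was tested for 4 cell types in a model with the mouse as a block. Of 38 such tests 1 passed. The effect on *Phex* was higher in osteocyte-like than in OB-like cells by 0.52 on the log2 scale (SE 0.094, adjusted p = 0.0027), where 0.412% of genes were called (0.13% in *Lepr*+ MSC-like, 0.0586% in OP/preOB-like and 0.0266% in hypertrophic GPC-like cells). For *Lepr*+ MSC-like against OB-like cells the difference of the effects on *Phex* was -1.04 ± 0.23 (adjusted p = 0.12).

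*Enpp1* rose in the OP/preOB-like cells of mutants. These had 25.7 and 34.7 CPM in the controls and 51.3 and 47.0 in the mutants of 7 weeks, and 55.9 and 55.05 against 112 and 106 CPM at 13 weeks, with no overlap within an age. It rose by 0.84 on the log2 scale (SE 0.14, adjusted p = 0.011, or 4.8e-06 with the block). The call was lost without replicate 1 of the mutants of 7 weeks (adjusted p = 0.057) and at a mitochondrial limit of 5% in place of 10% (0.089). At 7 weeks alone the difference was 0.71 ± 0.20 and at 13 weeks 0.97 ± 0.19, with adjusted p-values of 0.36 and 0.085, or 0.0098 and 0.00013 with the block. Since this class spans 2 stages, the summed markers of both were read in it. Those of the *Lepr*+ OP list (10 genes, all detected) were at 15430 to 19436 CPM in controls and 15224 to 18722 in mutants, and overlapped within each age. Those of the preOB list (12 genes, all detected) overlapped at 7 weeks, at 13632 to 14787 CPM in controls and 14511 to 14523.5 in mutants. At 13 weeks they were apart, at 16004 to 16361 and 15594 to 15693 CPM. The OB markers (15, all detected) overlapped at 13 weeks and were apart at 7 weeks, at 22819 to 23036 and 23080 to 33455 CPM. Proliferation markers (10 genes, all detected) did separate the genotypes, at 103.6 to 220 CPM in controls and 69.4 to 94.7 in mutants, and osteoclast markers (5, all detected) did so within each age, in opposite directions, at 286 to 339 against 368 to 514 CPM at 7 weeks and 389 to 408 against 290.4 to 309.6 CPM at 13 weeks (controls first). At 7 weeks the Sca1+ MSC markers (12, all detected) were at 1359 to 1469 CPM in controls and 1569 to 1918 in mutants and the endothelial markers (10, all detected) at 40.5 to 71.5 and 78.7 to 80.4 CPM. At 13 weeks the GPC markers (14, all detected) were at 947 to 1468 and 1548 to 2030 CPM and the pericyte markers (10, all detected) at 111 to 152 and 66.9 to 96.9 CPM. Megakaryocyte markers (5, all detected) were then at 76.4 to 92.9 and 48.1 to 49.0 CPM, and other lists of blood cells were also apart within an age. The control means of *Enpp1* in Sca1+ MSC-like (66.1 ± 32.4 CPM) and GPC-like cells (59.6 ± 18.3) did not differ from that of this class (42.8 ± 15.1) beyond their spread. The part of these markers in the rise of *Enpp1* was not tested.

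The log2 fold change of *Enpp1* was above 0 in all 6 types, from 0.17 in GPC-like to 0.89 in hypertrophic GPC-like cells. Hypertrophic GPC-like cells had 61.5 and 51.9 CPM in the controls and 103 and 129 in the mutants of 7 weeks, and 168 and 102 against 229 and 226 CPM at 13 weeks. These too did not overlap within an age, at a difference of 0.89 ± 0.17 (SE, adjusted p = 0.21, or 0.0017 with the block and 0.0039 with DESeq2), and the adjusted p was 0.044 without replicate 1 of the controls of 13 weeks. Markers of several types lay apart between the genotypes in hypertrophic GPC-like cells of 7 weeks, again with 2 mice per genotype. The GPC markers (14) were at 99470 to 103776 CPM in controls and 71996 to 92179 in mutants, the hypertrophic GPC markers (10) at 29668 to 33127 and 37146 to 40635, the *Lepr*+ OP markers (10) at 195 to 356 and 401 to 1094 the OB markers (15) at 5869 to 6437 and 7519 to 7994, the osteocyte markers (10) at 3910 to 4400 and 2884 to 3830 and the pericyte markers (10) at 182.2 to 270.04 and 147 to 182.0 CPM, all of them detected. At 13 weeks the pericyte markers were at 109 to 132 and 72.0 to 96.4 CPM and the endothelial markers (10, all detected) at 16.2 to 19.3 and 24.9 to 31.1 CPM, while the others of these lists overlapped or, for the hypertrophic GPC markers, were at 27600 to 28542 CPM in controls and 23687 to 25410 in mutants. Their part in the differences of *Enpp1* and *Fam20c* in these cells was not tested. The adjusted p moved from 0.19 to 0.0096 with the block in *Lepr*+ MSC-like cells (0.65 ± 0.15) and from 0.35 to 0.037 in OB-like cells (0.49 ± 0.19). In OB-like cells the gene lay between 1.73 and 4.53 CPM in all mice, against 3.49 to 8.11 CPM in erythroid-like cells. The difference there thus rests on a low level, and the part of background in it was not tested. *Alpl*, its counterpart, differed by -0.28 to 0.23 over the 6 types and passed in none with or without the block.

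*Slc20a2* was below its control level in mutant OP/preOB-like cells. These had 371 and 336 CPM in the controls and 248 and 264 in the mutants of 7 weeks, and 144 and 218 against 121 and 92.0 CPM at 13 weeks, with the mutants below the controls at both ages. Markers that separated the genotypes in this class are given above for *Enpp1*, and their part here was not tested. This difference of -0.61 ± 0.16 (SE) did not pass with edgeR (adjusted p = 0.12) and passed with the block (0.0028) and with DESeq2 (0.045). *Lepr*+ MSC-like cells showed one of -0.52 ± 0.18 (adjusted p = 0.49), and in the other 3 types tested the control means were at or below that of erythroid-like cells. *Slc20a1* lay between -0.17 and 0.35 and passed nowhere.

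*Gdpd2* was at 1026 and 602 CPM in the control and 1389 and 854 in the mutant *Lepr*+ MSC-like cells of 7 weeks, and at 669 and 944 against 1251 and 1522 CPM at 13 weeks. The genotypes overlapped at 7 weeks and were apart at 13 weeks, and within each pair of one number the mutant was the higher. The markers given above for *Phex* that separated the genotypes in *Lepr*+ MSC-like cells apply here as well, and their part in this was not tested. Its difference of 0.62 ± 0.21 (SE) passed with the block and not without it (adjusted p = 0.45 and 0.0081). *Phospho1* passed nowhere, at differences of -0.98 to 0.05.

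*Fam20c* passed with edgeR in no type without the block and in 3 with it, and was the higher in mutants in each. OP/preOB-like cells had 44.9 and 29.4 CPM in the controls and 70.1 and 65.8 in the mutants of 7 weeks, and 65.7 and 87.8 against 105 and 84.9 CPM at 13 weeks, apart at the younger and overlapping at the older age (0.59 ± 0.16, SE, adjusted p = 0.15 and 0.0012). In osteocyte-like cells it was at 206 and 199 CPM in the controls and 209 and 238 in the mutants of 7 weeks, and at 139 and 167 against 229 and 225 CPM at 13 weeks (0.37 ± 0.14, 0.28 and 0.029). All 4 mutants lay above all 4 controls here, if by little. Among the tests of the 10 genes in the 6 types, *Slc20a2* in GPC-like cells was the only other without overlap between genotypes. The share of all genes without overlap, by genotype or by age, is not given here, so no support is drawn from this. Markers given above that separated the genotypes in these classes, those beside *Enpp1* for OP/preOB-like and those beside *Phex* for osteocyte-like cells, apply to *Fam20c* too. Their part was not tested. In hypertrophic GPC-like cells it was at 99.1 and 95.4 CPM in the controls and 177 and 282 in the mutants of 7 weeks, but at 171 and 123 against 175 and 171 CPM at 13 weeks (0.74 ± 0.17, 0.30 and 0.011, with 0.049 in DESeq2 and 0.045 in edgeR without replicate 1 of the mutants of 7 weeks). *Smpd3* in osteocyte-like cells differed by -0.59 ± 0.29 and did not pass (0.52 and 0.095). Its 4 pairs there were 1321 and 784, 303 and 496, 936 and 460, and 757 and 467 CPM, control before mutant, and 1 pair of 7 weeks went against the rest. Without replicate 2 of the controls of 7 weeks, the control of that pair, the difference was -0.94 ± 0.17. That mouse was singled out by its values, so no conclusion is drawn from leaving it out.

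**Figure D4:**
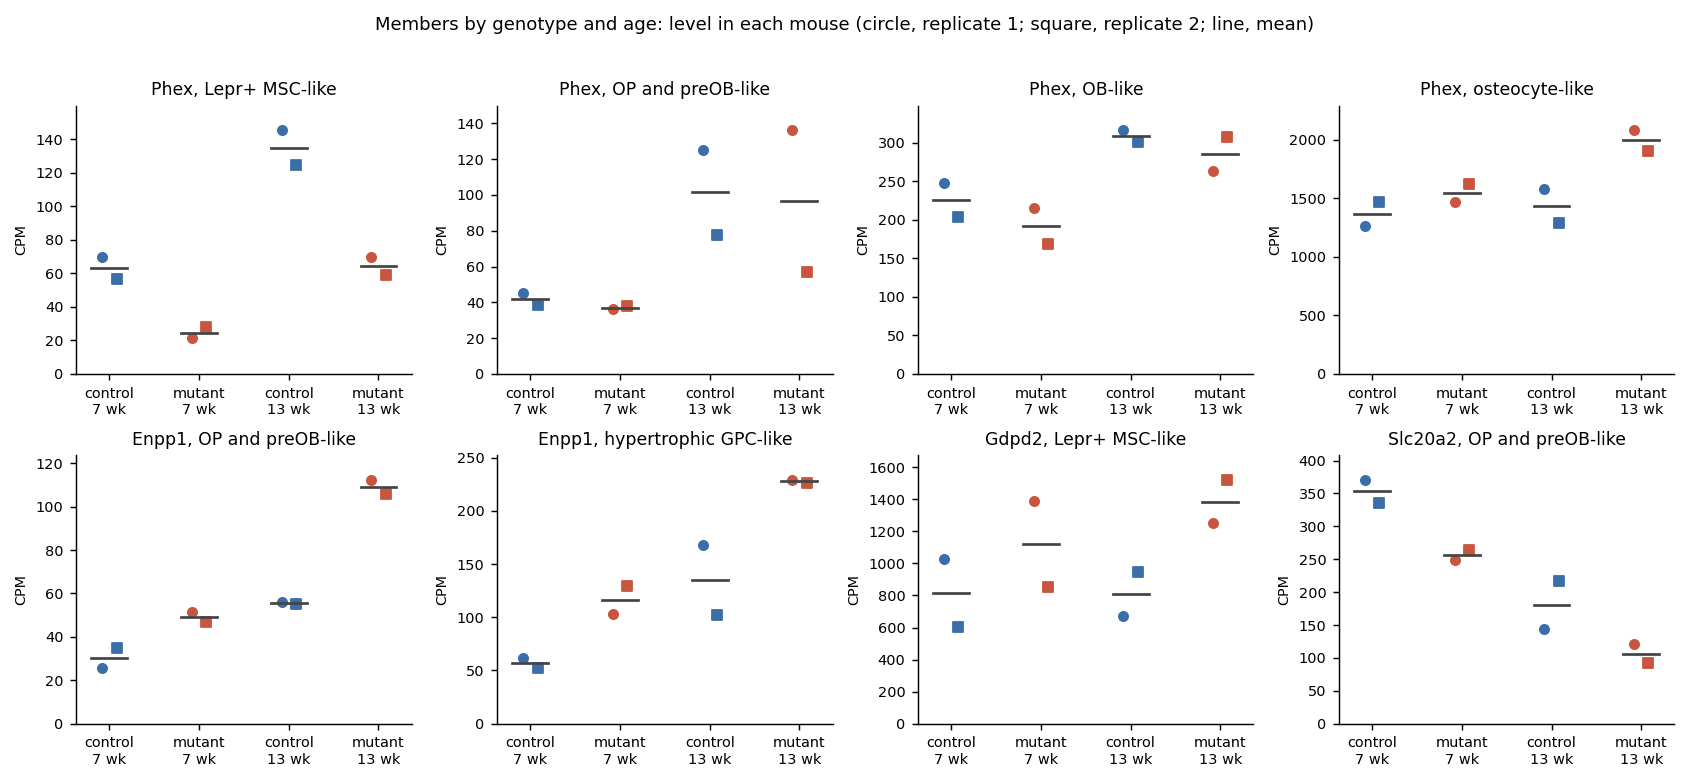
Level in each mouse (CPM, y axis from 0) for 8 combinations of gene and cell type, with blue for controls, red for mutants, a circle for replicate 1, a square for replicate 2 and a line at the mean of the 2 mice. *Phex* in *Lepr*+ MSC-like cells is at 69.8 and 56.9 CPM in the controls and 21.4 and 27.8 in the mutants of 7 weeks, *Enpp1* in OP/preOB-like cells at 55.9 and 55.05 against 112 and 106 CPM at 13 weeks, and *Phex* in osteocyte-like cells is highest in the mutants of 13 weeks.

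At the single ages none of the 49 tests passed with edgeR without the block (2 at each age with DESeq2), with 7 unadjusted p-values under 0.05 at 7 weeks and 11 at 13 weeks. Few genes passed there at all, namely 0.116% in osteocyte-like, 0.0902% in OB-like, 0.0842% in OP/preOB-like and 0.00862% in *Lepr*+ MSC-like cells at 7 weeks, and 0.278% in OB-like, 0.163% in osteocyte-like, 0.0842% in OP/preOB-like and 0.00899% in GPC-like cells at 13 weeks, with 0 in the types left. With the block 5 passed at 7 weeks. They were *Phex* in *Lepr*+ MSC-like cells (0.224% of genes called) and *Enpp1* and *Fam20c* both in OP/preOB-like (1.84%) and in hypertrophic GPC-like cells (0.417%). At 13 weeks 7 passed, namely *Phex* and *Gdpd2* in *Lepr*+ MSC-like cells (0.345% of genes called), *Enpp1* and *Slc20a2* in OP/preOB-like cells (2.23%), and *Phex*, *Fam20c* and *Smpd3* in osteocyte-like cells (2.24%). The difference of the genotype effect between the ages passed for no gene of the 10 with edgeR, with 1 unadjusted p-value under 0.05 without and 6 with the block, and none passed with DESeq2.

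With age *Slc20a2* fell in 2 cell types, *Enpp1* rose in 3, and *Phex* and *Fam20c* rose in 2 each. Of the 49 tests of 13 against 7 weeks, averaged over genotypes, 11 passed, 7 of them higher and 4 lower at 13 weeks, and 21 had an unadjusted p under 0.05. Of all genes, 7.79% were called in hypertrophic GPC-like, 4.55% in GPC-like, 1.94% in OB-like, 1.8% in OP/preOB-like, 0.345% in *Lepr*+ MSC-like and 0.128% in osteocyte-like cells. The pairs lie within an age, so the pair cannot serve as a fixed block here, and where mice of a pair deviate together these p-values may be too small. When the UMIs of both mice of a pair were summed, which leaves 2 sums per age, 4 of the 11 calls held with edgeR, namely *Enpp1* in GPC-like, hypertrophic GPC-like and OP/preOB-like cells and *Slc20a2* in OP/preOB-like cells. The summing was chosen after seeing the data.

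*Slc20a2* fell with age in *Lepr*+ MSC-like and OP/preOB-like cells. In OP/preOB-like cells it fell by 1.11 on the log2 scale (SE 0.16, adjusted p = 0.0040) on the values given above, and every mouse of 13 weeks lay below every one of 7 weeks (adjusted p = 0.044 over the summed pairs). *Lepr*+ MSC-like cells had 61.1, 95.2, 58.5 and 62.7 CPM at 7 weeks and 39.0, 29.3, 18.7 and 23.3 at 13 weeks (controls first), and it fell there by 1.34 (SE 0.18, adjusted p = 0.0084, or 0.077 at a clustering resolution of 1.5 and 0.073 over the summed pairs). *Alpl* fell in *Lepr*+ MSC-like cells, from 385, 589, 419 and 468 CPM to 319, 234, 238 and 174 (-0.96 ± 0.18, adjusted p = 0.045). Leaving out any of 7 of the 8 mice ended this call (0.064 to 0.23), as did 6 of the other alternatives, namely another clustering seed (0.058), clusters of low UMI count added (0.059), a mitochondrial limit of 5% (0.098), a clustering resolution of 1.5 (0.13), no integration (0.18) and the summed pairs (0.31). Markers of neighbouring types moved with age in both classes. In *Lepr*+ MSC-like cells the summed preOB markers (12, all detected) were at 6839 to 8764 CPM at 7 weeks and 5460 to 6297 at 13 weeks, and the *Lepr*+ OP markers (10, all detected) at 17542 to 23986 and 16208 to 17295 CPM. In OP/preOB-like cells the Sca1+ MSC markers (12, all detected) were at 1359 to 1918 CPM at 7 weeks and 569 to 974 at 13 weeks, those of the preOB list (12, all detected) at 13632 to 14787 and 15594 to 16361, and those of endothelial cells (10, all detected) at 40.5 to 80.4 and 17.0 to 26.2 CPM. Their part in these falls was not tested.

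*Phex* rose with age in *Lepr*+ MSC-like cells by 1.23 (SE 0.15, adjusted p = 0.0065, or 0.073 over the summed pairs), with the older mice above the younger ones in each genotype. The preOB and *Lepr*+ OP markers given above moved with age in these cells too, and their part in this rise was not tested. *Phex* also rose in OP/preOB-like cells, from 45.2, 38.7, 36.0 and 38.0 CPM in the controls and mutants of 7 weeks to 125, 77.9, 136 and 56.8 at 13 weeks (1.34 ± 0.24, adjusted p = 0.011), though not without replicate 2 of the controls of 7 weeks (0.058) or over the summed pairs (0.075). *Enpp1* rose in OP/preOB-like cells by 1.03 (SE 0.14, adjusted p = 0.0025, or 0.033 over the summed pairs) and in hypertrophic GPC-like cells by 1.07 (SE 0.17, adjusted p = 0.0026, or 0.011). In the latter the hypertrophic GPC markers (10) were at 29668 to 40635 CPM at 7 weeks and 23687 to 28542 at 13 weeks, the pericyte markers (10) at 147 to 270 and 72.0 to 132, the *Lepr*+ MSC markers (15) at 265 to 318 and 355 to 497 and the osteoclast markers (5) at 28.7 to 41.0 and 47.4 to 65.0 CPM, all of them detected, and their part in this rise was not tested. *Fam20c* rose in OP/preOB-like cells by 0.77 (SE 0.16, adjusted p = 0.027), a call that leaving out any of 5 mice (0.078 to 0.11) or summing the pairs (0.13) ended. The 3 calls of a rise in OP/preOB-like cells were lost with a mitochondrial limit of 5% (adjusted p = 0.13 for *Phex*, 0.092 for *Enpp1* and 0.77 for *Fam20c*). Osteocyte markers in the OP/preOB-like cells moved with age too. All 10 were detected, and their summed level was 333 to 339 CPM in the controls and 337 to 425 in the mutants of 7 weeks, and 472 to 939 and 612 to 1181 CPM at 13 weeks, while that of the 15 OB markers, also all detected, was 22819 to 33455 CPM at 7 weeks and 13493 to 46763 at 13 weeks. The part of these markers, and of the others given above for this class, in the rise of *Phex*, *Enpp1* and *Fam20c* was not tested.

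The remaining calls were 3 genes in GPC-like cells. *Enpp1* rose by 0.69 (SE 0.15, adjusted p = 0.019), *Fam20c* rose by 0.61 (0.15, adjusted p = 0.036) and *Smpd3* fell by 0.64 (0.14, adjusted p = 0.021). *Fam20c* was at 27.1 to 45.0 CPM at 7 weeks and 49.4 to 61.8 at 13 weeks, and *Smpd3* at 951 to 1117 and 589 to 846 CPM, so that the ages did not overlap. Each of these calls was lost without any of 5 or 6 mice (0.053 to 0.13). Without integration *Fam20c* differed by 0.07 ± 0.17 (SE, adjusted p = 0.84) and *Smpd3* by -0.24 ± 0.14 (0.31), and at a mitochondrial limit of 5% the call of *Enpp1* was lost (0.57 ± 0.16, 0.068). Over the summed pairs *Enpp1* passed (0.038), and *Fam20c* (0.095) and *Smpd3* (0.065) did not. Markers of other types moved with age in GPC-like cells. The *Lepr*+ OP markers (10) were at 293 to 436 CPM at 7 weeks and 499 to 1320 at 13 weeks, the preOB markers (12) at 651 to 782 and 842 to 1196, the *Lepr*+ MSC markers (15) at 275 to 310 and 325 to 533 and the osteoclast markers (5) at 48.9 to 69.4 and 89.3 to 134 CPM, all of them detected, and their part in these calls was not tested. None of the 10 genes passed with edgeR for age in OB-like or osteocyte-like cells, nor in endothelial-like cells, where 3.15% of all genes did. *Phex* in OB-like cells, at 168 to 248 CPM at 7 weeks and 264 to 317 at 13 weeks, had a difference of 0.51 ± 0.12 (adjusted p = 0.070, or 0.0033 with DESeq2, which also called *Alpl* there, at -0.34 ± 0.10 and 0.043, and *Slc20a1* in both chondrocyte types), and *Gdpd2* in OP/preOB-like cells one of 0.58 ± 0.16 (adjusted p = 0.11).

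**Figure D5:**
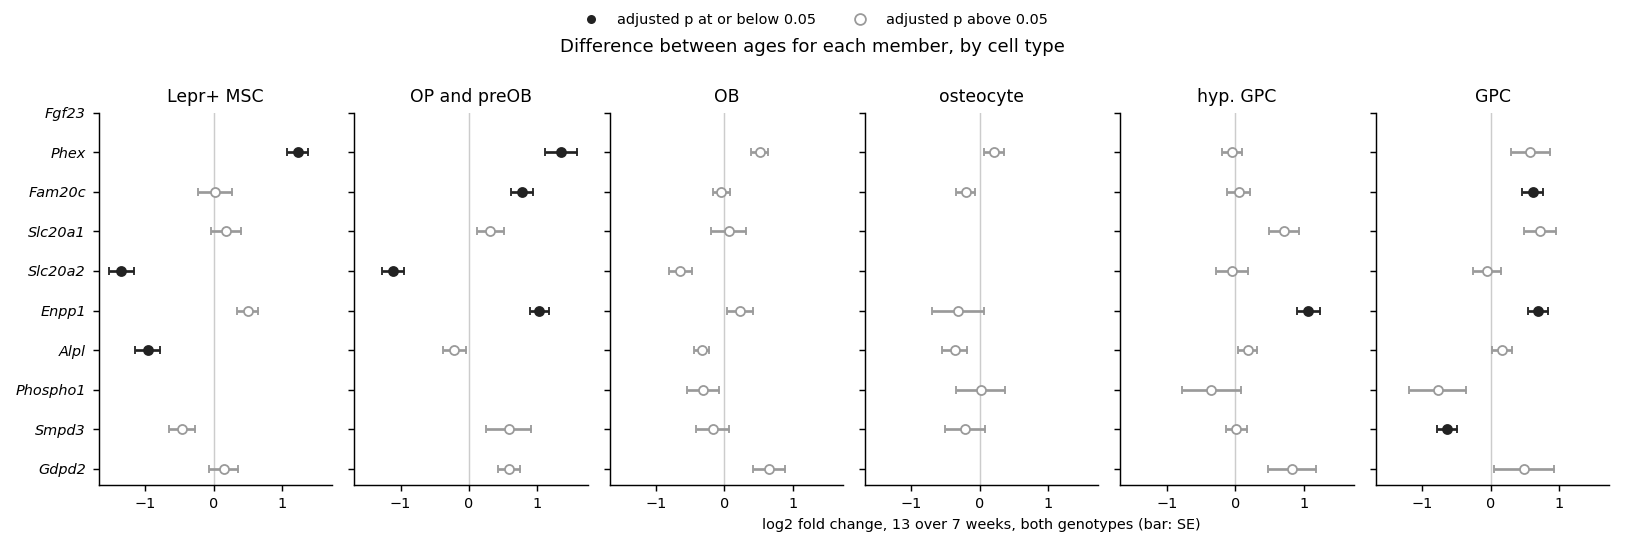
Log2 fold change of 13 over 7 weeks averaged over genotypes (x axis; bars are SE) for each gene in the 6 cell types, with no point where a gene did not pass the filter. The 11 filled points passed, among them *Slc20a2* to the left of 0 in *Lepr*+ MSC-like and OP/preOB-like cells (-1.34 and -1.11) and *Enpp1* to the right in hypertrophic GPC-like, OP/preOB-like and GPC-like cells (1.07, 1.03 and 0.69).

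Other genes of the same pathways were read from 6 lists of 38 genes, which gave 160 tests in the 6 cell types. By genotype 2 were higher and 2 lower. Both falls were those of *Gdpd1*, a relative of *Gdpd2* with lysophospholipase D activity. In OB-like cells *Gdpd1* was at 2.16, 2.40, 2.34 and 3.08 CPM in the controls and 0.536, 0.462, 0.318 and 0.663 in the mutants, and fell by 2.34 on the log2 scale (SE 0.24, adjusted p = 0.0017, where 1.26% of genes were called). Osteoclast markers in OB-like cells (5, all detected) were at 95.4 to 133 CPM in controls and 141 to 187 in mutants and pericyte markers (10, all detected) at 49.8 to 76.1 and 77.0 to 100.5 CPM, and at 7 weeks the Sca1+ MSC markers (12, all detected) at 48.8 to 59.1 and 96.7 to 120 and at 13 weeks at 25.2 to 27.2 and 38.8 to 90.7 CPM, and their part in this was not tested. Osteocyte-like cells held 45 *Gdpd1* UMIs in controls and 1 in mutants, a ratio of 42.0 per UMI summed with a counting interval of 7.16 to 1695 (adjusted p = 0.0030, where 1.57% of genes were called). Only controls reached the level that the filter on low counts asks for. *Gdpd1* thus entered this test through the group where it was high, and no support is drawn from its p-value. The part of the markers given above for *Phex* in osteocyte-like cells was not tested here either.

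*Spp1*, which encodes the FAM20C substrate osteopontin, rose in osteocyte-like cells. It was at 224 and 585 CPM in the controls and 485 and 1827 in the mutants of 7 weeks, and at 132 and 424 against 1438 and 1360 CPM at 13 weeks, apart at the older age and overlapping at the younger (1.94 ± 0.37, SE, adjusted p = 0.011, or 0.23 with DESeq2). The summed preOB markers in these cells, all 12 detected, overlapped at 7 weeks, at 685 to 931 CPM in controls and 745 to 1003 in mutants. At 13 weeks they were apart, at 859.7 to 860.8 and 976.4 to 976.6 CPM. Other markers that separated the genotypes in these cells are given above for *Phex*, and the part of all these markers in the rise of *Spp1* was not tested. *Nt5e*, whose product makes adenosine and phosphate from AMP, rose in OP/preOB-like cells, from 8.45 and 8.48 CPM in the controls to 16.8 and 16.6 in the mutants of 7 weeks and from 7.99 and 7.03 to 17.9 and 12.9 CPM at 13 weeks (1.00 ± 0.18, adjusted p = 0.020). The mutants were above the controls at both ages, yet 10 of the 17 alternatives ended this call, among them leaving out any of 6 mice (0.064 to 0.10).

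With age 10 of the 160 were higher and 2 lower, where 0.128 to 7.79% of all genes were called in the 6 types. The list of FAM20 kinases and their bone substrates made up 5 of the 10 (of 32 tests), all of them the substrates *Ibsp*, *Mepe* and *Dmp1* and none a kinase. Phosphate or pyrophosphate transport gave 2 (of 12), phospholipid and choline metabolism 2 (of 45) and the axis of FGF23, parathyroid hormone and vitamin D 1 (of 30). The 4 pyrophosphate and nucleotide hydrolysis genes passed in none of 23 tests, and of the annexins 1 of 18 tests passed, *Anxa6*, which fell by 0.74 in hypertrophic GPC-like cells. The other fall was that of *Vdr*, the vitamin D receptor, by 0.84 in GPC-like cells. Among those named after their values were seen, *Ank*, which encodes the pyrophosphate exporter, rose from 55.1 ± 25.4 to 112 ± 39.4 CPM (SD, n = 4 mice per age) in hypertrophic GPC-like cells, and *Dmp1*, a FAM20C substrate, from 64.0 ± 24.3 to 189 ± 34.1 CPM in OP/preOB-like cells. *Dmp1* and *Mepe* are also among the osteocyte markers whose sum is given above.

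Across 9 named non-haematopoietic cell types, the genes whose control means most resembled each of 8 of the 10 genes were sought among 5185 genes by Pearson's r of log2(CPM + 5). These types share libraries and depth, and r is a description. For *Phex* these were *Irx5* (r = 0.96), *Gm41724* (0.93) and *Chsy1* (0.92), a chondroitin synthase. *Irx5*, like *Hp* below, was also a marker that served to name the cells. Those of *Fam20c* were *Wipi1* (0.94), *Sgms2* (0.94) and *Bmp8a* (0.92), those of *Enpp1* *Runx3* (0.94), *Ecrg4* (0.93) and *Lrrc1* (0.92), and those of *Alpl* *Pak1* (0.92), *Ctsh* (0.91) and *Gpc1* (0.89). *Smpd3* was nearest to *Slc35e4* (0.97), *Nme1* (0.97) and *Slc8a3* (0.96), and *Gdpd2* to *Wdr86* (0.99), *Grem1* (0.99) and *Hp* (0.98). *Slc20a2* resembled *Ndnf* (0.96), *Hgsnat* (0.95) and *Wls* (0.95), and *Slc20a1* resembled *Mafg* (0.99), *Cmip* (0.98) and *Slc43a3* (0.98). Among these 8 genes *Smpd3* and *Fam20c* were most alike (0.85) and *Phex* and *Slc20a1* most opposed (-0.81).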

How the data were processed

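The authors deposited raw UMI counts per gene and barcode, made with Cell Ranger (6.1.2; Seurat 4.3 and mm10 are also named in the submitters' processing notes), without normalisation. Symbols are those of the deposited counts, and the gene annotation is not given in the sources used here. Gene positions and promoters come from RefSeq (GRCm38.p6).

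Barcodes with fewer than 200 or more than 6000 genes or over 10% mitochondrial UMIs were left out, and doublets were called per library from simulated ones at 0.8% of cells per 1000 barcodes. The kept cells had a median of 6500 to 12476.5 UMIs per library. They were integrated with Seurat 5.3.0 (reciprocal PCA, 2000 variable genes, 30 components) and grouped with leidenalg 0.10.2 at resolution 1. A cluster took the name of the marker list with the highest fold and at least 3 counting markers, except that the proliferation list gave way to the next one and that chondrocytes were called hypertrophic where that list lay within 1 (log2) of the GPC list. Osteoprogenitors and preosteoblasts had been planned as separate types, but the division of their cluster moved with the seed and with rounding, so they were kept as 1 class. This, and when chondrocytes were called hypertrophic, was decided once the clusters were known, the merging after results of the divided classes had been seen and before those of the merged one. Clusters with a median under 33.3% of their library's UMIs (11152 cells) were left out.

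Each cell type's UMIs were summed within a mouse (at least 10 cells) and tested with edgeR 4.0.16 (quasi-likelihood, TMM, filterByExpr) in 1 fit per cell type with a mean for each of the 4 groups. Levels are TMM-normalised CPM, with the factors set within each cell type. Those of the OB-like clusters, and those of endothelial-like cells with and without an *Fgf23* UMI, are CPM without these factors. The latter were pooled over all mice. The genes and lists were chosen with earlier results of these data known. The named genes were all 10 members, the listed genes past the threshold for genotype averaged over both ages, *Sox4*, and the 3 most similar genes of each member reaching 50 CPM.

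The study's text gives the mice as pairs of sisters, without saying that a number marks a pair. The differences between replicates 1 and 2 correlated between genotypes at both ages (r = 0.15 to 0.75 over genes of at least 20 CPM) in each of the 6 cell types except GPC-like cells (0.36 and 0.0054), so the same numbers were taken as pairs. DESeq2 1.42.0, the pair as a block, no filter, other cell filters and clusterings, sums per pair and leaving out each mouse were tried as alternatives. In a test on simulated data, log2 changes of 1 were called for 69.4% of changed genes in *Lepr*+ MSC-like, 83% in OB-like and 66.3% in osteocyte-like cells (11378, 14176 and 8370 genes). The simulated mice were independent, with no effect of pair, and changes of 1 were planted together with changes of 2. These shares therefore do not give the power of the tests on the real mice. P-values measure the spread between mice, and intervals on shares of cells and on counts cover counting error only.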

Additional observations from a re-analysis of the deposited data

Results flagged for a closer look

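The effect of genotype on *Phex* differed between cell types. It was higher in osteocyte-like than in OB-like cells by 0.52 on the log2 scale in the test of the difference itself (SE 0.094, adjusted p = 0.0027). The mutants were higher in osteocyte-like cells in 4 of the 4 pairs of 1 age and number and lower in OB-like cells in 3 of the 4 pairs. The osteocyte markers in osteocyte-like cells averaged 5029 CPM in controls and 5871 in mutants the GPC markers 3725 and 2243 and the osteoclast markers 88.6 and 136, and their part in this was not tested. In each of the 10 alternatives run, which leave out each mouse or the filter on low counts or use another clustering seed, the difference passed, at 0.41 to 0.67.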

How the results depend on the processing

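The called values of the 10 genes, the pathway genes called by genotype and *Sox4* changed sign in no alternative run. This does not cover the pathway genes called by age or *Alpl* in pericyte-like cells, whose values in the alternatives are not given here. Calls for genotype over both ages numbered 2, and 5 with DESeq2, 1 at a mitochondrial limit of 5%, 9 without a filter on low counts, 11 with the pair as a block and 1 to 3 without single mice. At 7 weeks 0 were made, and 2 with DESeq2, 1 at the mitochondrial limit of 5%, 4 without a filter, 5 with the pair as a block and 0 to 1 without single mice. At 13 weeks 0 were made, and 2 with DESeq2, 3 without a filter, 7 with the pair as a block and 0 without any mouse. The differences between ages stayed at 0 in every alternative. For age, 11 were made, and 15 with DESeq2, 6 at the mitochondrial limit of 5%, 18 without a filter, 7 without integration, 4 over sums per pair and 6 to 11 without single mice. Differences from OB-like cells numbered 1, and 3 without a filter and 1 to 3 without single mice. Another clustering seed, like the sums per pair an alternative chosen after seeing the data, gave 2, 0, 0, 0, 10 and 1 for these counts in the same order. *Gdpd1* and *Sox4* kept their calls in every alternative that gave an adjusted p. The highest cell type stayed the same for 8 to 10 of the 10 genes. Without integration the only cluster of hypertrophic GPC-like cells (437 cells) was left out for its low UMI count, so counts there rest on fewer tests. The cause of the other changes was not tested. Shares of all genes called are given only for edgeR with and without the pair as a block, so the counts of the other alternatives lack that background. With 2 mice per group, log2 changes near 0.5 lie below the simulated sizes, and *Phospho1* and *Fgf23* are limited by their few UMIs.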

Other observations

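The endothelial-like cells with an *Fgf23* UMI (74 cells) differed from the other 3434 endothelial-like cells in genes picked after their values were seen. *Csf3*, which encodes the granulocyte growth factor G-CSF, was at 571 against 54.03 CPM, *Rgs4* at 525 against 51.1, *Tfpi2* at 1158 against 259 and *Adamts5* at 1911 against 509.5 CPM. These cells come mostly from 1 mouse, and no test was made over cells.

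In pericyte-like cells, which held few UMIs of most of the 10 genes, *Alpl* fell with age by 1.68 on the log2 scale (SE 0.26, adjusted p = 0.014 with edgeR, where 0.123% of genes were called). It was at 123, 229, 167 and 162 CPM in the mice of 7 weeks and at 72.0, 64.5, 44.8 and 36.1 CPM in those of 13 weeks, and the ages did not overlap. There were 33 to 231 pericyte-like cells per mouse. Those of the mutants of 13 weeks, the last 2 values, held 143539 and 136928 UMIs of all genes, so these values rest on few *Alpl* UMIs. The pericyte markers (10, all detected) also moved with age, at 25387 to 35474 CPM at 7 weeks and 35802 to 41500 at 13 weeks, as did those of proliferation (10, all detected), at 171 to 866 and 25.6 to 274 CPM, and of the *Lepr*+ OP list (10, all detected), at 1771 to 2290 and 991 to 1865 CPM. Their part in the fall of *Alpl* was not tested.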
